A study of Homo sapiens with 6 samples.

Results

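Homologous recombination copies an intact sister DNA to mend a double-strand break. The Fanconi anemia pathway removes links between DNA strands and works together with the same machinery. BRCA1 and BRCA2, both well known as breast cancer susceptibility genes, act at processed ends, while the kinases ATM and ATR report damage and hold the cell cycle. Many of these genes are transcribed in S and G2 phases, when a sister copy exists. The 36 genes examined were taken from a list of symbols, drawn up with earlier results of these data known though by no rule on measured values: 4 of the BRCA scaffold, 6 strand exchange genes, 9 Fanconi genes, 4 genes of break sensing and end resection, 6 helicase and resolution genes and 7 checkpoint genes. All 36 were found among the 27451 gene rows of the deposited table, and all 36 reached the mean of 1 TPM (transcripts per 1000000, a length-corrected share of the library) required for testing, as did 12294 genes in all.

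MDA-MB-231 cells, a long-used line from human breast cancer, lack the estrogen and progesterone receptors and carry a mutant p53. The control group had the vehicle DMSO (3 libraries) and the other group had H182 at 2 µM for 2 h (3 libraries), a compound placed among STAT3 inhibitors by the title of the series. Both groups were the same unmodified line, and only this line was sampled. RNA was selected for poly-A tails and sequenced. The labels do not say whether replicates were separate cultures, and the p-values therefore cover only library-to-library spread, possibly technical.

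All 8 genes listed as marks of the line, VIM and CD44 among them, were present, with summed levels of 7915 to 8110 TPM in DMSO and 6559 to 6965 TPM in H182. The defining hormone receptor genes ESR1 and PGR stayed at or below 0.06 TPM in every library, although 5 of 10 markers of epithelial or receptor-positive lines averaged 1 TPM or more, led by KRT8 and KRT18. Of 8 blood and vessel markers 1 (CD14), and of 6 fibroblast markers 1 (COL1A1), averaged 1 TPM or more across the 6 libraries. Of all tested genes, 18.7% were lower and 5.3% higher in H182 at an adjusted p under 0.05 (limma), and the median gene changed by -0.09 on the log2 scale. Because TPM is a share of a fixed total, median-of-ratios scaling was used beside it. That scaling divides each library by its typical ratio to the others, and it brought the median gene to 0.00, with 6.78% of genes lower and 7.88% higher.

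The repair transcripts were compared after 2 h of H182 or vehicle. Of the 36 genes, 13 fell, none rose and 23 did not pass, a share of 36.1% lower. Of all tested genes 18.7% were lower and 5.3% higher. The 13 that fell were ATR, BARD1, EXO1, ATRIP, RAD50, FANCD2, RMI1, FANCG, XRCC2, MUS81, CLSPN, NBN and FANCE, in order of size. All of the falls were below 2-fold, from -0.62 on the log2 scale for ATR to -0.20 for FANCE. The median of the 36 genes was -0.16, against -0.09 for all tested genes. At an unadjusted p under 0.05 in limma there were 20 genes, 18 with lower values in H182 (29.7% of all tested genes) and 2, FANCA and FANCL, with higher values (7.74% of all tested genes).

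In 19 of the 36 genes (52.8%) each H182 library lay below each DMSO library, whereas 32.7% of all tested genes showed this. No gene had all H182 libraries above the DMSO libraries, where the share among all tested genes was 8.67%. The 7 genes ATR, BARD1, EXO1, ATRIP, RAD50, RMI1 and FANCG fell with median-of-ratios scaling too, 19.4% of the 36 (6.78% of all tested genes). The same 7 genes were also lower with quantile normalization, which gave 8 falls (10.3% of all tested genes were lower there). FANCA was higher with median-of-ratios scaling (log2 change 0.33, limma adjusted p = 0.0496), a call that TPM did not give (adjusted p = 0.117). The count of 13 depended on single libraries: it was 8 without DMSO replicate 3 and 8 without H182 replicate 2.

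**Figure D1:**
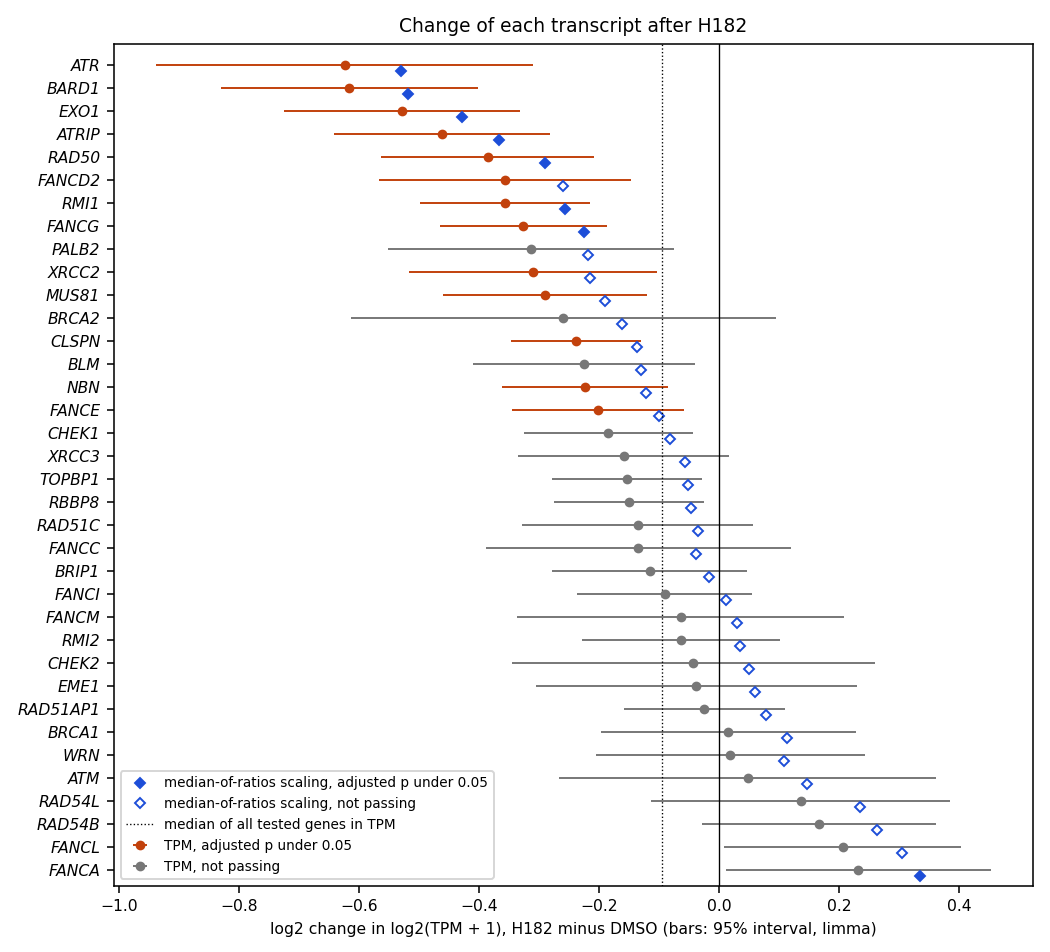
Change of each of the 36 transcripts, H182 minus DMSO, on the log2(TPM + 1) scale with its 95% interval from limma (circles) and the change with median-of-ratios scaling (diamonds). The 13 transcripts that fell in TPM lie between -0.62 and -0.20, and 7 of them also passed with the other scaling.

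Start site sequences were examined because 13 of the genes fell in the same direction. RefSeq promoter sequences (GRCh38.p14, 250 bases before to 50 after the start) were found for 31 of the 36 genes, and not for FANCI, NBN, RAD54B, RMI2 and WRN. A gene was counted where any of its starts held the motif on either strand. E2F factors drive genes of S phase, and an E2F-like motif (TTTGGCGC, TTTCCCGC, TTTGCCGC or TTTCGCGC, read on both strands) was held by 8 of the 31 genes (25.8%), against 6.8% of the tested genes with a promoter and 3.99% of all genes with one. Of the 12 genes with a promoter that fell, 5 held it (41.7%), and 3 of the 19 that did not pass (15.8%). Among all tested genes with a promoter it was held by 7.71% of those called lower and 6.7% of those not passing. Of the 7 genes lower with both scalings, 2 held it (28.6%). The 28-base stretches that hold it are shown in full, with the motif in capitals in the direction of the gene, so that their place and flanks can be compared. In CLSPN, FANCD2, TOPBP1, EXO1 and XRCC2 the motif overlapped a RefSeq start or lay just after it. EXO1 had another RefSeq start (chr1:241848731) whose window did not hold the motif.
CLSPN, chr1:35769966-35769993, minus strand: ctctggctggGCGGGAAAgcaagaacag
EXO1, chr1:241848198-241848225, plus strand: aaggtcagccTTTCGCGCgctgtgtagg
FANCA, chr16:89816802-89816829, minus strand: ctacaccgcgGCGGCAAAgccaaacgca
FANCC, chr9:95317864-95317891, minus strand: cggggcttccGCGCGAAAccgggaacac
FANCC, chr9:95317738-95317765, minus strand: tcgtcggaatTTTCCCGCgacgccgcgg
FANCD2, chr3:10026425-10026452, plus strand: gtcgggcctgGCGGGAAAgtcgaaaact
RMI1, chr9:83980763-83980790, plus strand: gcgcgagcgcGCGGCAAAtcgggcggga
TOPBP1, chr3:133661931-133661958, minus strand: cgcgcggttgGCGCGAAAgtcggttccc
XRCC2, chr7:152676103-152676130, minus strand: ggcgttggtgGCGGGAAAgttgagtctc

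CCAAT boxes, bound by the factor NF-Y, were held by 16 of the 31 genes (51.6%), against 43.7% of tested genes. They were found in 4 of the 12 genes that fell (33.3%) and 12 of the 19 that did not pass (63.2%), against 44.4% and 43% of all tested genes in these classes. The CHR-like motif of G2 genes (TTTGAA or TTCGAA) was held by 3 of the 31 genes (9.68%, against 15.5% of tested genes), and none of those 3 fell. Among all tested genes it was held by 19.7% of those called lower and 14.5% of those not passing. No gene held a heat shock element (3 alternating GAA and TTC units, each 2 bases apart), which 0.501% of tested genes held. Letters of the CHR-like motif and the heat shock element can overlap. A match is not a binding site, and a missing match says only that these letters are not in the window. Upstream stretches of 4 genes, picked after the values were seen, are shown with CCAAT, or its reverse complement ATTGG, in capitals. CLSPN and BRIP1 both held 3 such boxes close to the start, and CLSPN fell while BRIP1 did not pass. BARD1, with no box, and BRCA1, with 1, encode partner proteins.
BARD1, chr2:214809712-214809831, minus strand: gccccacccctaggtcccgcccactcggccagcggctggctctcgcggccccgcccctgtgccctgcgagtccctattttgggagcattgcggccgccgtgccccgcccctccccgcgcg
BRCA1, chr17:43125484-43125603, minus strand: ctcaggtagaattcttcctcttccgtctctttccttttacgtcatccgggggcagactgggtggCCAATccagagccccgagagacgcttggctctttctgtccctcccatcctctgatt
BRIP1, chr17:61863529-61863648, minus strand: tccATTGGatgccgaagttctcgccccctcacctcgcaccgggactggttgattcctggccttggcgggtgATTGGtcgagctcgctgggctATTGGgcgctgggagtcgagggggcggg
CLSPN, chr1:35769979-35770098, minus strand: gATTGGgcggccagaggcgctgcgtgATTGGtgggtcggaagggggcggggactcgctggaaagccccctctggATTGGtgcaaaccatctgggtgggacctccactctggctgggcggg

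The BRCA scaffold joins break sensing to the later steps of recombination. BARD1, the partner with which BRCA1 forms a ubiquitin ligase (chr2:214725646-214809711, minus strand, GENCODE 29 on GRCh38), stood at 19.3, 21.1 and 17.1 TPM in DMSO and at 12.8, 12.3 and 11.2 TPM in H182. The groups did not overlap, and BARD1 fell by 36.7% in mean TPM (log2 change -0.62, SE 0.095, limma adjusted p = 0.00172). BRCA1 (chr17:43044295-43170245, minus strand) stood at 15.1, 17.4 and 15.9 TPM in DMSO and at 16.4, 14.6 and 18.1 TPM in H182, so that the groups overlapped throughout. Its log2 change was 0.02, with a 95% interval from -0.20 to 0.23. BRCA2, which acts on resected DNA (chr13:32315474-32400266, plus strand), stood at 20.6, 17.4 and 17.3 TPM in DMSO and spread over 11.5, 15.9 and 19.2 TPM in H182. It did not pass (log2 change -0.26, interval -0.61 to 0.09). PALB2, the bridge between BRCA1 and BRCA2, averaged 12.3 ± 1.69 TPM with DMSO and 9.62 ± 0.354 TPM with H182 (SD, n = 3 each, as for all ± values). Its groups did not overlap, yet it missed the threshold (limma adjusted p = 0.0587).

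Among the genes of strand exchange, the step in which a broken end pairs with its template, XRCC2 was the 1 of 6 called lower (18.7% of all tested genes). It stood at 14.55, 15.04 and 14.35 TPM with DMSO and 10.48, 11.51 and 12.99 TPM with H182, without overlap (log2 change -0.31, SE 0.092, limma adjusted p = 0.0374). Median-of-ratios scaling ended this call (adjusted p = 0.13), as did leaving out any library but H182 replicate 3. RAD51C and XRCC3 changed by -0.14 and -0.16 and did not pass. RAD51AP1, which promotes strand pairing and was the most abundant of these 6 genes, had means of 74.95 ± 5.602 TPM with DMSO and 73.5 ± 1.29 TPM with H182. The DNA translocase genes RAD54L (0.14) and RAD54B (0.17) had positive changes that did not pass.

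Of the 9 Fanconi genes 3 fell and 0 rose, while 18.7% of all tested genes fell and 5.3% rose. FANCG, a scaffold of the core complex (chr9:35073835-35080016, minus strand), stood at 58.2, 61.3 and 61.7 TPM in DMSO and at 45.5, 46.7 and 52.0 TPM in H182. The groups did not overlap (log2 change -0.33, SE 0.062, limma adjusted p = 0.00524). FANCD2, which is ubiquitinated by the core complex, stood at 18.7, 17.5 and 18.9 TPM in DMSO and 16.15, 13.40 and 12.97 TPM in H182. The fall of FANCD2 (log2 change -0.36, limma adjusted p = 0.0228) was not called with median-of-ratios scaling (-0.26, adjusted p = 0.123) or without any 1 of DMSO replicates 1 and 3 and H182 replicates 2 and 3. Its partner FANCI did not pass at -0.09. FANCE, which contacts FANCD2 within the core, was at 52.9 ± 3.21 and 45.8 ± 2.40 TPM, near the threshold (adjusted p = 0.0473) and lost without any 1 library but DMSO replicate 2.

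FANCA, a core complex subunit, stood at 52.7, 71.9 and 63.4 TPM in DMSO and at 69.1, 77.1 and 73.8 TPM in H182, where the lowest H182 library lay below the highest DMSO library. FANCL, the ubiquitin ligase subunit, was at 21.1 ± 2.51 and 24.3 ± 0.876 TPM and did not pass (log2 change 0.21, limma adjusted p = 0.119), though without DMSO replicate 1 it did (0.0319). FANCC, the anchoring translocase FANCM and the helicase gene BRIP1 changed by -0.13, -0.06 and -0.12 and did not pass. Core subunits thus included FANCG and FANCE among the falls and FANCA and FANCL among the positive changes.

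Of the genes that sense and trim broken ends, 3 of 4 fell (18.7% of all tested genes). EXO1, the nuclease of long-range resection (chr1:241847967-241895148, plus strand), stood at 60.1, 59.0 and 59.9 TPM in DMSO and at 45.9, 42.8 and 35.1 TPM in H182. It fell by 30.8% (log2 change -0.53, SE 0.088, limma adjusted p = 0.00251), and the H182 libraries differed more among themselves than the DMSO libraries did. RAD50, the tether of broken ends (chr5:132556019-132646344, plus strand), stood at 14.4, 14.1 and 14.3 TPM in DMSO and 10.15, 11.04 and 10.87 TPM in H182 (log2 change -0.39, adjusted p = 0.00741). NBN, which brings ATM to the RAD50 complex, went from 46.7 ± 0.416 to 39.9 ± 2.76 TPM (log2 change -0.22, adjusted p = 0.0278). That call was lost with median-of-ratios scaling and without any 1 library but H182 replicate 3. MRE11A, the nuclease of the complex and not among the 36 genes, changed by -0.14 and did not pass, and it was named after its values were seen. RBBP8, the gene of CtIP and the most abundant of the 36 transcripts, was at 97.5 ± 6.98 and 87.7 ± 0.512 TPM and did not pass (limma adjusted p = 0.0807), although its groups did not overlap.

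Joint DNA molecules are undone by the BLM complex or cut by nucleases. RMI1, a core protein of the BLM complex (chr9:83980711-84004074, plus strand), stood at 33.14, 36 and 35.02 TPM in DMSO and at 25.9, 28.1 and 26.7 TPM in H182. It fell without overlap (log2 change -0.36, SE 0.063, limma adjusted p = 0.00358). The helicase gene BLM changed by -0.22 and missed the threshold (adjusted p = 0.0753), while RMI2 (-0.06) and the helicase gene WRN (0.02), the least abundant of the 36 at 6.39 ± 0.306 TPM in DMSO, did not pass. MUS81, a nuclease subunit, went from 37.4 ± 3.30 to 30.3 ± 1.37 TPM (log2 change -0.29, adjusted p = 0.0219), and this did not hold under median-of-ratios scaling (-0.19, adjusted p = 0.107) and without any 1 of DMSO replicates 2 and 3 and H182 replicates 1 and 2. Its partner EME1 was at 15.6 ± 1.41 and 15.3 ± 2.49 TPM.

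Of the 7 checkpoint genes 3 fell (18.7% of all tested genes). ATR, the kinase of stalled forks (chr3:142449235-142578826, minus strand), stood at 15.3, 11.2 and 10.4 TPM in DMSO and at 6.72, 7.70 and 8.27 TPM in H182. It fell by 38.6% without overlap (log2 change -0.62, SE 0.14, limma adjusted p = 0.0116), and its DMSO libraries were spread. Without DMSO replicate 1 the change of ATR was -0.47, smaller than that of BARD1 (-0.61). ATRIP, which carries ATR to single-stranded DNA (chr3:48446710-48467645, plus strand), stood at 15.05, 15.29 and 14.02 TPM in DMSO and at 10.2, 10.4 and 10.8 TPM in H182 (log2 change -0.46, SE 0.080, adjusted p = 0.00324). Both genes of this pair of partners fell with either scaling. ATRIP overlaps TREX1 on the same strand, and TREX1, named after its values were seen, did not pass at -0.23.

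ATM, the kinase of double-strand breaks, stood at 19.0, 19.5 and 19.2 TPM in DMSO and at 17.6, 17.1 and 26.3 TPM in H182. H182 replicate 3 was above all DMSO libraries, and H182 replicates 1 and 2 were below them. The log2 change was 0.05, or -0.14 without H182 replicate 3, and neither passed. CLSPN, the mediator that brings CHEK1 to ATR, went from 82.4 ± 2.10 to 69.7 ± 2.49 TPM (log2 change -0.24, limma adjusted p = 0.00699), and passed with quantile normalization but not with median-of-ratios scaling (-0.14, adjusted p = 0.0639). CHEK1 was at 85.1 ± 5.96 and 74.7 ± 4.03 TPM without overlap and just missed the threshold (adjusted p = 0.0606). TOPBP1 (-0.15), the activator of ATR, and the effector kinase gene CHEK2 (-0.04) did not pass.

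**Figure D2:**
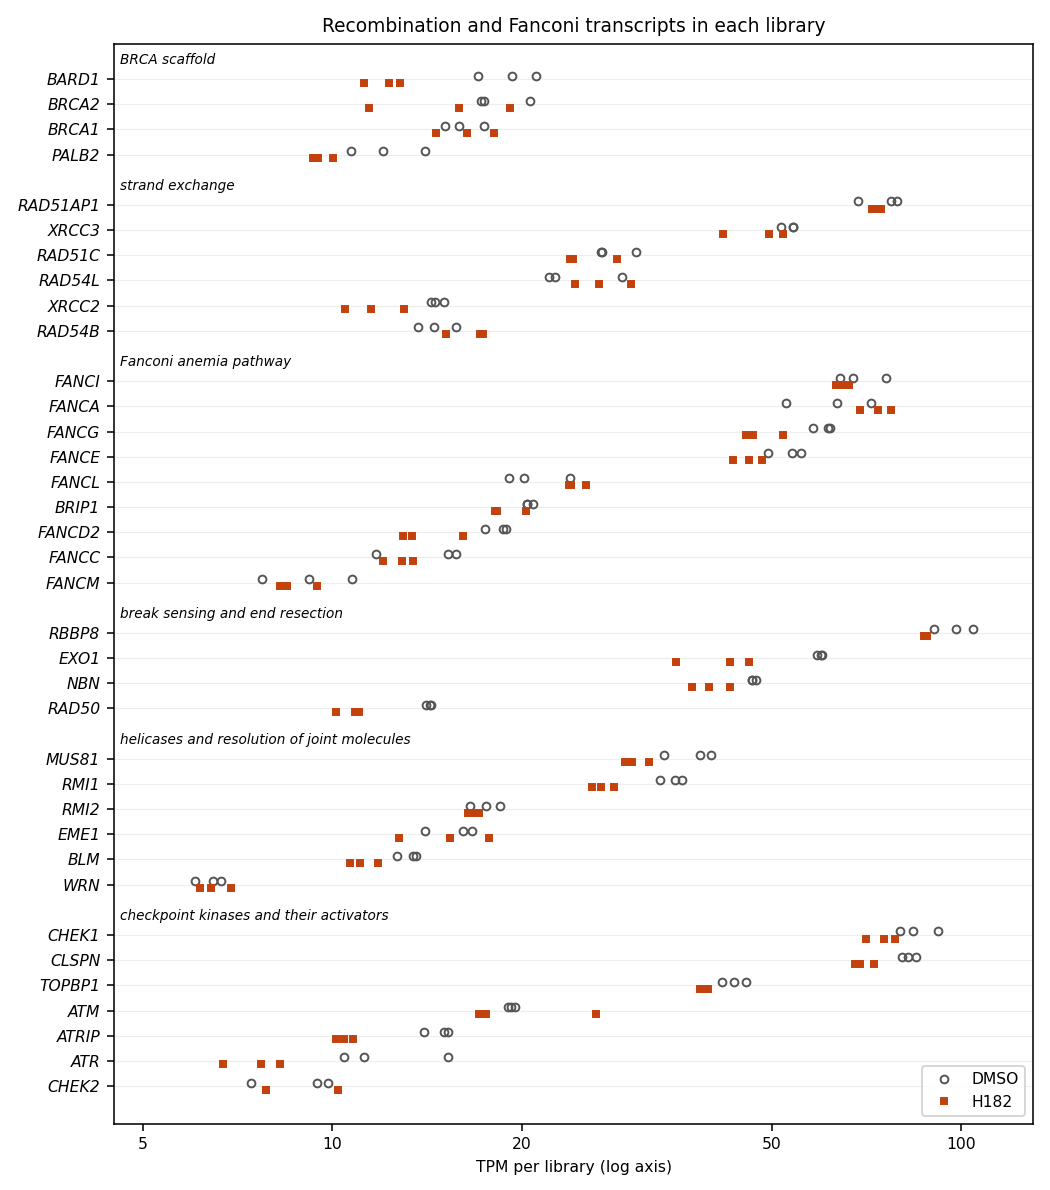
TPM of the 36 transcripts in each of the 3 DMSO (circles) and 3 H182 (squares) libraries on a log axis, grouped by role. BARD1, EXO1, RAD50, RMI1, ATR and ATRIP show 3 H182 libraries below the 3 DMSO libraries, while BRCA1, WRN and EME1 overlap.

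Partners of 1 complex did not always move together. Ratios of TPM within a library, which no scaling of the library changes, were therefore taken for 11 pairs chosen after the values were seen. ATR to ATM and CHEK2 to CHEK1 pair separate kinases, not partners of 1 complex. With 3 against 3 libraries the exact two-sided permutation test cannot give a p below 0.1, so no ratio can pass a threshold of 0.05. The ratio of BARD1 to BRCA1 was 1.28, 1.21 and 1.07 in DMSO and 0.781, 0.842 and 0.621 in H182. The groups did not overlap (difference of -0.67 in log2, exact permutation p = 0.1, adjusted over 11 pairs 0.22). ATR to ATM (-0.74), FANCG to FANCA (-0.57), RMI1 to RMI2 (-0.30) and RAD50 to NBN (-0.19) likewise did not overlap, each with the same p. In all of these pairs but RAD50 to NBN, a gene called lower was set over one that did not pass. The choice of pairs therefore favoured separation, and the share of such ratios over all pairs of genes was not counted. The ratio of RAD50 to NBN was the tightest in DMSO, at 0.305 ± 0.00214, and stood at 0.268 ± 0.0126 in H182. The ratio of ATRIP to ATR overlapped between groups (1.23 ± 0.212 in DMSO and 1.39 ± 0.109 in H182, exact permutation p = 0.5).

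**Figure D3:**
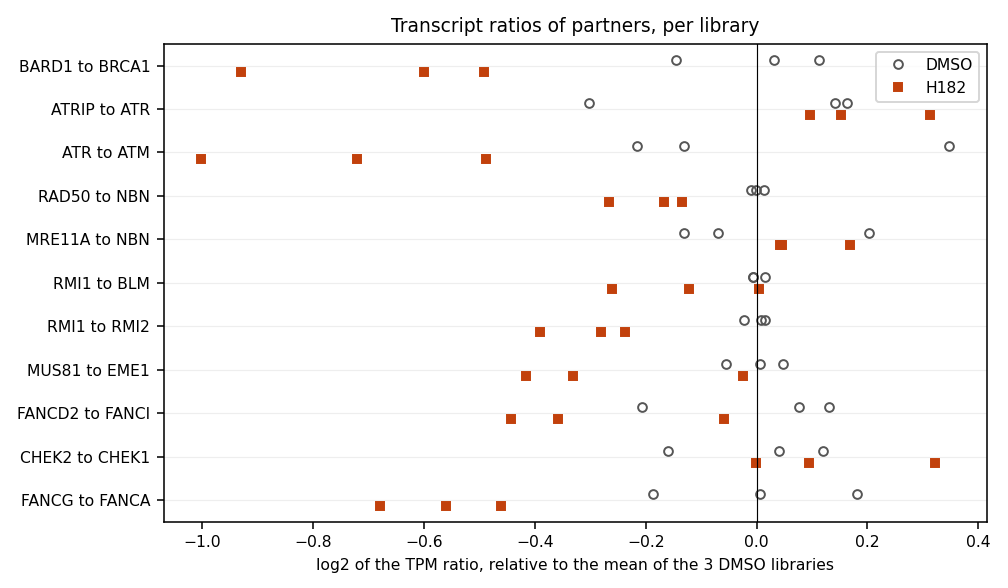
log2 ratio of TPM of 11 pairs of genes in each library, relative to the mean of the 3 DMSO libraries (circles: DMSO, squares: H182). The pairs were chosen after the values were seen. The H182 libraries lie apart from the DMSO libraries for BARD1 to BRCA1, ATR to ATM, RAD50 to NBN, RMI1 to RMI2 and FANCG to FANCA, and overlap them for the other 6 pairs.

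The DMSO levels of the 36 genes ran from 6.39 TPM to 97.5 TPM with a median of 19.9 TPM, and 16 of them lay above the median of 23.1 TPM of all tested genes. Their median span was 67422 bases, longer than the 32160 bases of all tested genes. Across the 36 genes the log2 change had a Pearson r of 0.168 and a Spearman rho of 0.249 with gene span. Over 12250 tested genes these values were -0.0829 and -0.0442, of the opposite sign, and genes are not independent replicates. Of the 36 genes, the 13 that fell spanned 6182 to 129592 bases (median 47182). The other 23 spanned 8264 to 327743 bases (median 79109). Tested genes on the opposite strand overlap 11 of the 36, and with the strand setting of the counting not given in the sources used here, their reads may be mixed. MUS81 is one, since it overlaps CFL1, which stood at about 2320 TPM in DMSO, and FANCA overlaps ZNF276.

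A gene can share its start region with a gene on the other strand. A start on the opposite strand, pointing away and within 1000 bases by RefSeq, was found for 16 of the 31 genes. The share among all genes was not counted. Of the neighbours of these 16 genes 7 were tested, and only HNRNPK fell (18.7% of all tested genes fell). HNRNPK is an RNA-binding protein gene whose start lies 144 bases from that of RMI1. HNRNPK went from 923.5 ± 28.6 to 837 ± 25.7 TPM (log2 change -0.14, limma adjusted p = 0.0229), but not with median-of-ratios scaling (-0.04, adjusted p = 0.514), where RMI1 still fell. NPAT beside ATM (-0.28), NBR1 beside BRCA1 (-0.17) and DCTN5 beside PALB2 (-0.11) did not pass. NBR1 lies beside another BRCA1 start (chr17:43170327), not the start whose upstream stretch is printed above. NBR2, the other neighbour found for BRCA1, had no values. HSCB beside CHEK2, MRPL27 beside EME1 and ZFYVE21 beside XRCC3 changed by 0.02, 0.01 and -0.06 and did not pass either.

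Other genes of recombination and the Fanconi pathway, with some checkpoint and cell cycle regulators such as WEE1, were read from a list of 62. Of the 62 genes, 61 were tested. Of these 18 fell and 1 rose (29.5% lower, against 18.7% of all tested genes), with a median of -0.15. With median-of-ratios scaling 8 fell (13.1%, against 6.78% of all tested genes). The lowest p-values were those of WEE1, the kinase that restrains CDK1 (from 57.6 ± 6.74 to 33.1 ± 1.82 TPM), RFWD3, a ubiquitin ligase of RPA (from 54.0 ± 6.41 to 37.1 ± 1.94 TPM), and RPA1, which coats single-stranded DNA (from 263 ± 8.57 to 223 ± 5.76 TPM). UBE2T, the enzyme that works with FANCL, fell by 0.18 on the log2 scale in TPM only (limma adjusted p = 0.031) and was named after its values were seen. The count of 18 was 10 without DMSO replicate 2 or 3 and 11 without H182 replicate 1 or 2.

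Other repair pathways had shares of falls between 25% and 42.9%, against 18.7% of all tested genes. With median-of-ratios scaling the shares ran from 5.26% to 18.2%, against 6.78% of all tested genes. In end joining 4 of 16 genes fell (2 with that scaling), among them SHLD2 (listed as FAM35A), XRCC5 and LIG4. In mismatch repair 3 of 7 fell (1 with that scaling). MSH6 was the clearest, from 161 ± 3.81 to 101 ± 4.605 TPM (log2 change -0.66, limma adjusted p = 9.00e-06), with PMS2 at -0.23, and the count was 1 without DMSO replicate 1 or 2 or H182 replicate 2 or 3. In nucleotide excision repair 6 of 19 fell (1 with that scaling, and 3 in TPM without H182 replicate 1), with RAD23B (-0.21), ERCC2 (-0.25) and DDB1 (-0.19) at the lowest p in TPM, none of which passed with that scaling. The 1 that did was XPC, named after its values were seen, at -0.61 in TPM and -0.51 with that scaling (limma adjusted p = 0.0149 and 0.0478). In base excision repair 9 of 22 fell (4 with that scaling), led by FEN1, TDP1 and NEIL3.

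Cell cycle lists moved with these genes, and their part in the result was not tested. All 26 genes listed for G2 and M phase fell (median -0.35; 21 with median-of-ratios scaling), KIF23, CCNA2 and TOP2A with the lowest p. Of 36 replication and S phase genes 14 fell and 1 rose (38.9% lower, median -0.15; 6 fell with median-of-ratios scaling, and 9 in TPM without DMSO replicate 2), led by E2F8, MCM4 and GINS1. The 36 repair genes, with a median of -0.16, lay near the replication list and also near other repair lists. Medians were -0.16 for nucleotide excision repair, -0.17 for mismatch repair, -0.14 for base excision repair and -0.12 for end joining. In RNA from whole cultures, fewer cells in a phase and less of a transcript per cell cannot be told apart. Genes known as targets of p53 or of damage signalling showed 7 rises and 2 falls among 19 tested with either scaling (36.8% and 10.5%). Of all tested genes 5.3% rose and 18.7% fell in TPM, and 7.88% rose and 6.78% fell with median-of-ratios scaling. The line carries a mutant p53, and the cause of these changes was not tested. CDKN1A, the cell cycle inhibitor p21, rose from 46.3 ± 0.363 to 212 ± 9.59 TPM, GADD45B from 68.3 ± 0.159 to 154 ± 4.02 TPM and PMAIP1, a death-promoting BCL2 family gene, from 52.4 ± 0.899 to 105 ± 2.17 TPM.

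**Figure D4:**
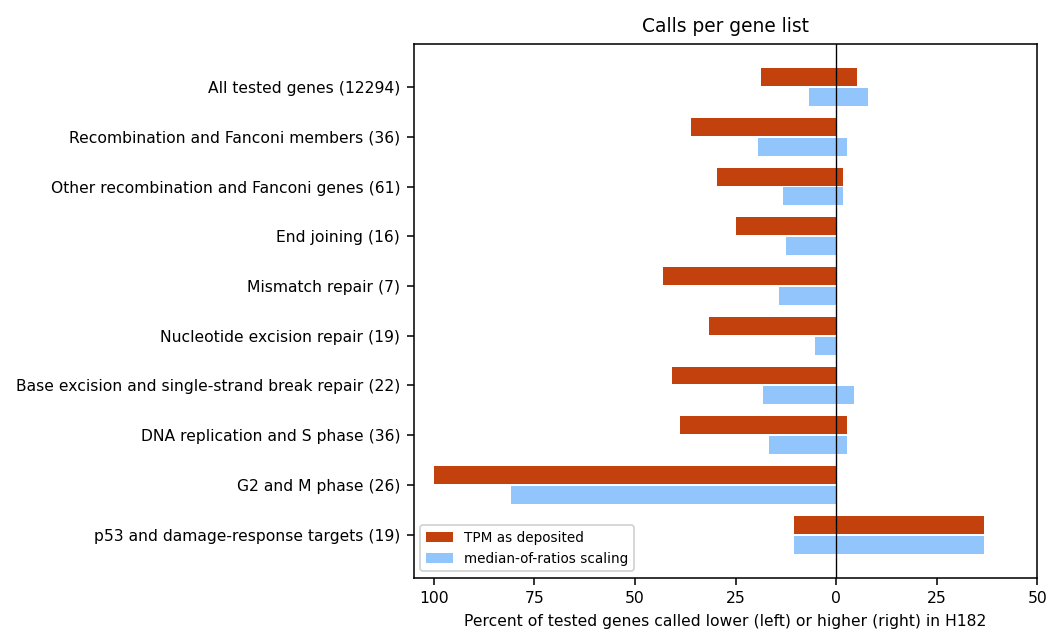
Percent of tested genes called lower (left) or higher (right) in H182 per list, with the number tested in brackets, for TPM as deposited and after median-of-ratios scaling. The 36 recombination and Fanconi genes had 36.1% lower in TPM and 19.4% after scaling, against 18.7% and 6.78% of all tested genes.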

How the data were processed

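Poly-A RNA of 6 libraries (3 DMSO, 3 H182) was prepared with a stranded Illumina kit, per the labels' protocols. STAR 2.5.0, RSEM 1.2.25 and GRCh38 are named in the submitters' processing notes. Annotation, trimming and strand setting are not given in the sources used here. Values were deposited by the authors as TPM for each gene, scaled to 1000000 per library, so depth is unknown and no counting interval is given. Of 27567 rows, 92 spike-in rows, all at 0, and 24 second rows of X and Y genes were left out.

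Values were analysed as log2(TPM + 1) for the 12294 genes averaging 1 TPM or more, a scale that understates changes of low genes. The group difference was fitted in limma 3.58.1 (R 4.3.3; two-sided, moderated with a mean-variance trend, Benjamini-Hochberg over all tested genes, threshold 0.05), checked on simulated data. Rose and fell mean that a gene passed. Alternatives covered scaling, pseudocount, filter, variance model, library weights, threshold, replicate block and each library left out. The members and lists were chosen with earlier results of these data known. All 36 members could be named, with full statistics for up to 3 per role by lowest p, further members described after their values were seen, and up to 3 genes with the lowest p per other list. Some genes are not reported here. Coordinates came from GENCODE 29 on GRCh38, which held 24 of the 36 identifiers in the same version. Promoters came from RefSeq (GRCh38.p14), and printed upstream stretches were kept free of annotated exons. Motif shares were first counted per promoter and then per gene, and neighbours first from GENCODE and then from RefSeq starts. Each change was made after the first output was seen. Ratios of gene pairs were tested with scipy 1.17.1, and figures drawn with matplotlib 3.10.9.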

Additional observations from a re-analysis of the deposited data

How the results depend on the processing

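Of the 13 falls, 6 (BARD1, EXO1, ATRIP, RAD50, RMI1 and FANCG) passed in each of the 17 alternatives, and ATR in 16, all but the threshold of 0.01. The 36 genes gave 7 falls and 1 rise with median-of-ratios scaling, 8 falls with quantile normalization, 7 at a threshold of 0.01, and 8 to 12 falls and 0 to 1 rises (FANCL without DMSO replicate 1, FANCA without DMSO replicate 2) with 1 library left out. Their median was -0.0547 with median-of-ratios scaling, -0.0774 with quantile normalization and -0.1186 with totals taken without HSPA1A, HSPA1B and DNAJB1. Over all tested genes there were 833, 1261 and 1496 falls in these 3 settings, 998 at 0.01, and 1407 to 2205 with 1 library left out. These scalings were made to remove a shift of most genes, and fewer samples entered the fits with 1 library left out.

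Same-numbered libraries of the groups did not deviate together (r from -0.0359 to 0.00245 across genes), so the numbers pair nothing known. With a replicate block 11 of the 36 genes fell and 1, FANCA, rose, and 2059 genes fell and 625 rose in all.

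Every direction that turned belonged to a gene short of the threshold. Under median-of-ratios scaling RAD51AP1 was at 0.0777, FANCM 0.0296, FANCI 0.0118, RMI2 0.0348, EME1 0.0597 and CHEK2 0.0502. With quantile normalization RAD51AP1 was at 0.0453 and EME1 at 0.0279, and without the 3 heat shock genes in the total RAD51AP1 was at 0.0132. With library weights BRCA1 was at -0.0337 and ATM at -0.0216. With 1 library left out, values ran from -0.054 to 0.089 for BRCA1, -0.0197 to 0.0503 for WRN, -0.1425 to 0.1518 for ATM, -0.0865 to 0.0147 for RAD51AP1, -0.1706 to 0.0414 for FANCM, -0.1442 to 0.0787 for EME1 and -0.1568 to 0.0265 for CHEK2. The cause of these turns was not tested. With depth unknown, counting error at low TPM, as for WRN, ATR and CHEK2, could not be estimated.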
